A study of Arabidopsis thaliana with 12 samples.

Results

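The genes described here are the 6 auxin receptors of Arabidopsis thaliana, TIR1 (AT3G62980), AFB1 (AT4G03190, listed under the symbol GRH1 in the RefSeq gene table), AFB2 (AT3G26810), AFB3 (AT1G12820), AFB4 (AT4G24390) and AFB5 (AT5G49980). They were picked by locus identifier from 2 tables of translated open reading frames (ORFs), 1 for root and 1 for shoot. Each receptor had 1 ORF in each table, so that 6 of 21768 root ORFs and 6 of 21128 shoot ORFs were receptor ORFs. By genes, they were 6 of the 18273 genes with an ORF in either tissue. The tables came from ribosome profiling, which sequences the short RNA fragments that translating ribosomes protect from RNase. Roots and shoots were taken from wild-type Col seedlings aged 4 days, grown in shaken liquid medium with 1% sucrose under 16 hours of light and 8 hours of dark at 22 °C, and harvested 3 hours after lights on. No mutant, transgene or hormone treatment was part of the design, and the root and shoot groups had 3 ribosome profiling and 3 RNA-seq samples each.

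Auxin is perceived in the nucleus by F-box proteins of the TIR1/AFB family. Receptors of this family are known as substrate-binding subunits of SCF ubiquitin ligases. In these an ASK adaptor links the F-box protein to the cullin CUL1 and the RING protein RBX1. How far each member does so was not tested here. Auxin sits in the leucine-rich repeat pocket of the receptor and glues an Aux/IAA repressor to it, the repressor is ubiquitinated and degraded, and the auxin response factors (ARFs) that it held are released to act on their genes. The family has 3 closely related pairs, TIR1 with AFB1, AFB2 with AFB3, and AFB4 with AFB5. The microRNA miR393 targets several members, among them TIR1, AFB2 and AFB3. Auxin receptors act in root elongation, root hair growth, lateral root formation, gravitropism and shoot growth.

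Each tissue had a single deposited set, with 1 whole-number footprint count per ORF, so the comparisons rest on single values, without replicates or p-values. Intervals are 95% intervals for counting error only and leave out differences between plants and libraries. The largest ORF counts of all genes summed to 113381941 in root and 95481490 in shoot, and these sums served to scale counts between tissues. They add up listed ORFs, so library depth is not known from them. Levels scaled in this way are given in CPM, counts per 1000000 of the tissue's sum. In bulk tissue, fewer cells that translate a gene and less translation per cell cannot be told apart, and without the RNA-seq values, which were not analysed here, transcript level and translation cannot be told apart either. The tissue labels were checked against 8 markers of each tissue. The root markers, among them the auxin efflux carrier PIN2 and the root hair expansin EXPA7, together held 666 CPM in root and 10.6 in shoot, where SMB, PLT1 and RHD6 were not listed. The shoot markers, among them the Rubisco subunit RBCS1A and the antenna protein LHCA1, held 19638 CPM in shoot and 554 in root, where the stomatal genes SPCH and TMM were not listed. The part of such shared signal in the receptor values was not tested.

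All 6 receptors were translated in both tissues as annotated coding ORFs. Of the genes with an ORF in either tissue, 80.3% had one in each tissue, 11.4% in root alone and 8.3% in shoot alone, so this placement is common. No upstream ORF, downstream ORF or second ORF was listed for any receptor, and no ORF of another gene overlapped a receptor on either strand. The miR393 genes MIR393A and MIR393B had no listed ORF. Nearly all listed genes had an annotated coding ORF (16682 of 16757 in root), so the absence of a microRNA gene says nothing of miR393 levels. Upstream ORFs were rare in these tables in general, with 104 genes in root (0.621% of listed genes) and 65 in shoot (0.401%).

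The ORFs of the 6 receptors had the same layout, with 3 exon blocks and 2 introns. A layout of 3 blocks was found in 10.2% of coding genes in root and 10.1% in shoot. Coordinates are those of the tables (TAIR10, counted from 1), with outer ends uncertain by 1 base because block and coding lengths differ by 1. The TIR1 ORF lay on the minus strand of chromosome 3 from 23273482 to 23276180 and had 594 codons. The AFB1 ORF lay on the minus strand of chromosome 4 from 1405111 to 1407056, with 585 codons. AFB2 was the single receptor on a plus strand, on chromosome 3 from 9868343 to 9870463, with 575 codons. AFB3 lay on the minus strand of chromosome 1 from 4368882 to 4370779, with 577 codons. The 4 ORFs of these receptors differed by at most 19 codons.

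AFB4 and AFB5, which are known as receptors of the picolinate herbicide picloram, had the longest ORFs. AFB4 lay on the minus strand of chromosome 4 from 12613912 to 12615938, with 614 codons, and was listed for transcript model 2 of the gene. AFB5 lay on the minus strand of chromosome 5, with 619 codons from 20334423 to 20336530 in root and 612 codons from 20334423 to 20336509 in shoot. The extra length of both genes was in the first block, which spanned 574 bases in AFB4 and 601 (root) or 580 (shoot) in AFB5, against 451 to 466 bases in the other receptors.

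The middle block, both ends of which are splice sites, sorted the receptors into their pairs. It was 493 bases long in TIR1 and AFB1, 496 in AFB2 and AFB3, and 499 in AFB4 and AFB5, steps of 3 bases or 1 codon. Middle blocks of 493 to 499 bases were found in 17 of 1705 genes with 3 blocks in root, receptors included, and the median middle block of such genes was 189 bases. Intron lengths did not follow the pairs. The first intron was 733 bases in TIR1 and 110 in AFB1, and 316 in AFB2 and 76 in AFB3. In AFB4 and AFB5 it was 89 and 90 bases. The second intron ranged from 79 bases in AFB2 to 185 in TIR1.

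**Figure D1:**
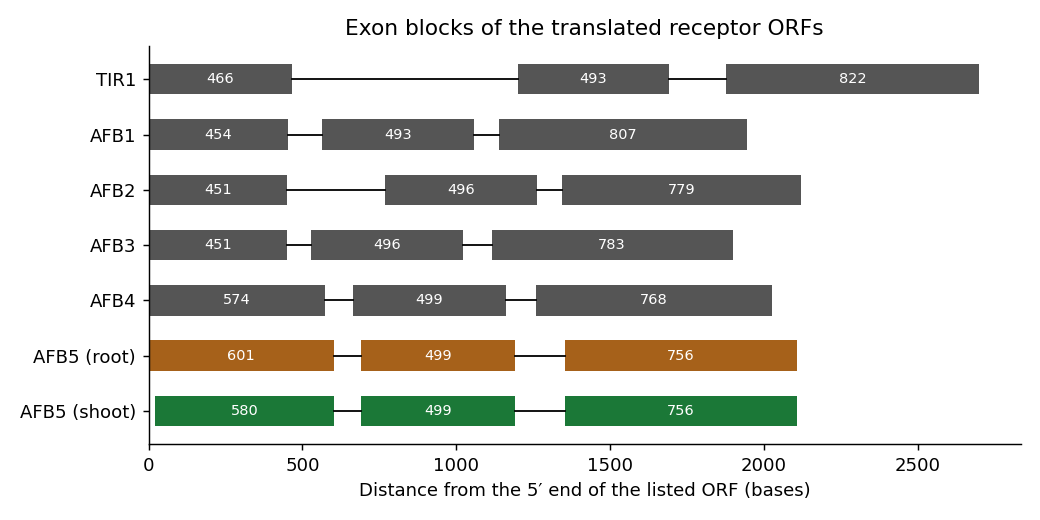
Exon blocks (bars, with length in bases) and introns (lines) of each receptor ORF to scale, against distance from the 5′ end in bases. The middle blocks are 493, 496 or 499 bases long by pair, and the AFB5 ORF starts 21 bases later in the shoot set (green) than in the root set (brown).

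AFB5 was the only receptor whose ORF differed between the tissues. Its listed start lay at transcript position 135 in root and 156 in shoot, 21 bases or 7 codons further in the same reading frame, with the same stop. The other 5 receptors had identical coordinates in both sets, as did an ORF of 79.3% of the 14635 genes with a coding ORF in both. Such start differences were frequent. For 3080 of those genes (21.05%) the longest coding ORFs of root and shoot shared transcript and stop but not start, with the longer ORF in root for 1688 and in shoot for 1392. The median difference was 33 codons, with quartiles of 13 and 75, and 15.6% of the differences were of 7 codons or fewer. The footprints on the 7 codons that differ in AFB5 are not given apart from the rest, so the tables do not show how many of the 4797 root counts fell there.

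Levels are compared between receptors as footprint counts per codon, which removes the difference in length. In root, AFB1 stood far above the rest of the family. In shoot, AFB1, TIR1, AFB2, AFB5 and AFB3 lay close together. AFB4 was the lowest in both tissues by a wide margin.

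TIR1, named after mutants that resist inhibitors of auxin transport, had 5916 counts in root (5766 to 6069) and 3693 in shoot (3575 to 3814). Per codon this was 9.96 in root and 6.22 in shoot, which placed TIR1 at percentile 69.1 of 16757 listed genes in root and 63.6 of 16191 in shoot. AFB1, which in Arabidopsis is needed for the rapid, non-transcriptional growth response of roots to auxin, had 14808 counts in root (14570 to 15048) and 3974 in shoot (3851 to 4100). Its level of 25.3 counts per codon in root was at percentile 85.0, and its level of 6.79 in shoot at percentile 66.1. AFB1 was the highest of the family in each tissue, but its lead over the next receptor was 2.34-fold in root (over AFB2) and 1.09-fold in shoot (over TIR1).

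AFB2, a receptor that shares much of the function of TIR1, had 6229 counts in root (6075 to 6386) and 3178 in shoot (3068 to 3290). Its level was 10.8 counts per codon in root and 5.53 in shoot, at percentiles 70.9 and 60.6. AFB3, which is known for its part in the nitrate response of roots, had 3705 counts in root (3587 to 3826) and 2735 in shoot (2633 to 2839). Its level was 6.42 counts per codon in root and 4.74 in shoot, at percentiles 58.1 and 56.7. AFB2 was thus above its partner AFB3 in both sets, with intervals that did not overlap.

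AFB5 had 4797 counts in root (4662 to 4935) and 3184 in shoot (3074 to 3297), or 7.75 and 5.20 counts per codon, at percentiles 63.3 and 59.1. AFB4 had 789 counts in root (735 to 846) and 404 in shoot (366 to 445). Its level was 1.29 counts per codon in root and 0.658 in shoot, at percentiles 16.6 and 10.5. AFB5 was 6.03-fold above its partner AFB4 in root and 7.91-fold in shoot. AFB4 was the only receptor below the median gene of its tissue, which had 4.79 counts per codon in root and 3.67 in shoot.

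From the highest to the lowest level per codon, the order in root was AFB1, AFB2, TIR1, AFB5, AFB3 and AFB4. No neighbours in that order had overlapping counting intervals, although AFB2 exceeded TIR1 by only 1.09-fold. In shoot the order was AFB1, TIR1, AFB2, AFB5, AFB3 and AFB4, so AFB2 and TIR1 exchanged places. AFB2 and AFB5 had overlapping intervals there. The range from AFB4 to AFB1 was 19.7-fold in root and 10.3-fold in shoot, and from AFB4 to AFB3, the next lowest, it was 4.997-fold in root and 7.20-fold in shoot. With 1 set per tissue, the spread over samples behind this order is not known. How footprints that match more than 1 receptor were assigned is not given in the sources used here, and this bears most on the closely related pairs.

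**Figure D2:**
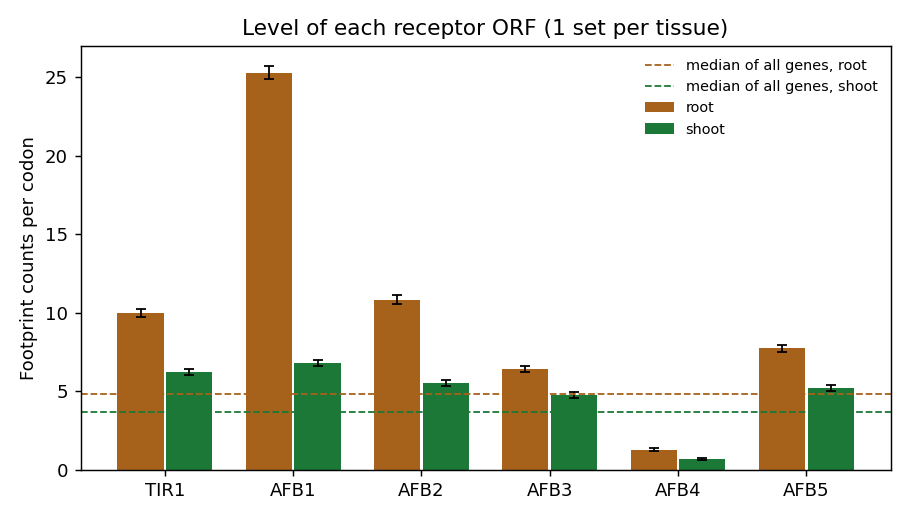
Footprint counts per codon of each receptor ORF in root (brown) and shoot (green), with bars starting at 0, 95% Poisson intervals for counting error, and dashed lines at the median of all listed genes of each tissue. AFB1 reaches 25.3 in root, 5 receptors lie between 4.74 and 6.79 in shoot, and AFB4 lies below the median in both.

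Shoot and root were then compared by the log2 ratio of each receptor's share of the tissue sums, with a pseudocount of 0.5, over ORFs of identical coordinates and, for AFB5, per codon. The ratio was below 0, that is higher in root, for all 6 receptors. The same direction was seen in 63.7% of the 11610 genes with an identical ORF and a count of 100 or more in either tissue, and in 63% of the 14659 genes with a ratio per codon. The median gene lay at -0.33, so ratios are also given relative to it. When ratios are taken from the median gene, AFB3 and AFB5 are no longer below 0.

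AFB1 was the receptor that differed most between tissues. Its share was 131 CPM in root and 41.6 in shoot, a log2 ratio of -1.65 (-1.70 to -1.60), or 3.14-fold higher in root. Relative to the median gene, AFB1 was 2.49-fold higher in root. Its ratio was at percentile 11.7 of all genes compared. At least 2-fold higher in root was met by AFB1 alone among the 5 receptors with an identical ORF, against 24.1% of genes, which is near that 1 of 5. Per codon, where AFB5 is included, it was 1 of 6 against 25.1% of genes. The 4-fold size was reached by no receptor. It was met toward root by 8.28% of genes and toward shoot by 8.76%, or 9.52% and 9.26% per codon. No receptor was 2-fold higher in shoot, which held for 14.8% of genes, or 15.8% per codon.

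AFB2 and AFB4 had almost the same ratio. AFB2 went from 54.9 CPM in root to 33.3 in shoot, a log2 ratio of -0.72 (-0.79 to -0.66), or 1.65-fold. AFB4 went from 6.96 to 4.23 CPM, a log2 ratio of -0.72 (-0.89 to -0.54), or 1.64-fold. They lay at percentiles 33.9 and 34.1 of all genes.

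TIR1, AFB5 and AFB3 lay near the median gene. TIR1 had 52.2 CPM in root and 38.7 in shoot, a log2 ratio of -0.43 (-0.49 to -0.37), at percentile 45.9. AFB5 had 42.3 and 33.3 CPM, a log2 ratio per codon of -0.33 (-0.39 to -0.26), at percentile 50.3 of the 14659 genes with a ratio per codon. AFB3 had 32.7 and 28.6 CPM, a log2 ratio of -0.19 (-0.26 to -0.12), at percentile 56.2. Relative to the median gene these ratios were -0.10 for TIR1, 0.01 for AFB5 and 0.14 for AFB3.

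**Figure D3:**
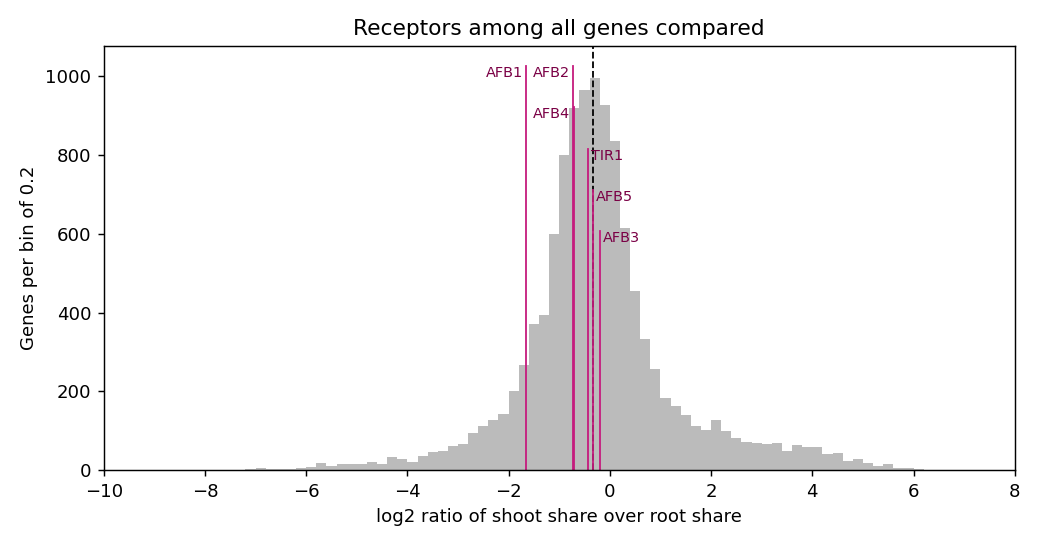
Histogram of the log2 ratio of shoot share over root share for the 11610 genes with an identical ORF and a count of 100 or more in either tissue, in bins of 0.2. The dashed line is the median gene at -0.33, and the vertical lines are the 6 receptors (AFB5 per codon), with AFB1 at -1.65 and the others between -0.72 and -0.19.

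Within each related pair the members differed in tissue ratio by more than counting error. The difference in log2 ratio, TIR1 minus AFB1, was 1.22 (1.14 to 1.30, normal approximation on the log counts). AFB2 minus AFB3 was -0.53 (-0.63 to -0.44), and AFB4 minus AFB5 was -0.39 (-0.57 to -0.21). Of the 15 possible differences between receptors, the interval left out 0 in 14. The exception was AFB2 minus AFB4, at -0.01 (-0.19 to 0.18). These differences do not depend on the scaling between tissues.

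The make-up of the family differed between the sets. AFB1 held 40.9% of the 36244 root counts of the family (exact binomial 95% interval 40.3 to 41.4) and 23.1% of the 17168 shoot counts (22.5 to 23.8). The shares of TIR1 were 16.3% in root (15.9 to 16.7) and 21.5% in shoot (20.9 to 22.1). Those of AFB5 were 13.2% (12.9 to 13.6) and 18.5% (17.97 to 19.1), and those of AFB3 10.2% (9.91 to 10.5) and 15.9% (15.4 to 16.5). AFB2 held 17.2% (16.8 to 17.6) and 18.5% (17.9 to 19.1). AFB4 held 2.18% (2.03 to 2.33) in root and 2.35% (2.13 to 2.59) in shoot, intervals that overlapped.

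Summed over the family, the receptors held 320 CPM in root and 179.8 in shoot, a log2 ratio of -0.83 (-0.86 to -0.80), or -0.50 relative to the median gene. AFB1 made up 63.6% of the difference of 139.9 CPM, AFB2 15.5%, TIR1 9.65% and the other receptors less each. This split rests on scaling by the tissue sums and was not computed relative to the median gene, where AFB3 and AFB5 are not below 0. Without AFB1 the sum was 189 CPM in root and 138 in shoot, a log2 ratio of -0.45 (-0.48 to -0.42), which is 0.12 below the median gene. Leaving out any other single receptor gave a log2 ratio between -0.92 and -0.83.

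**Figure D4:**
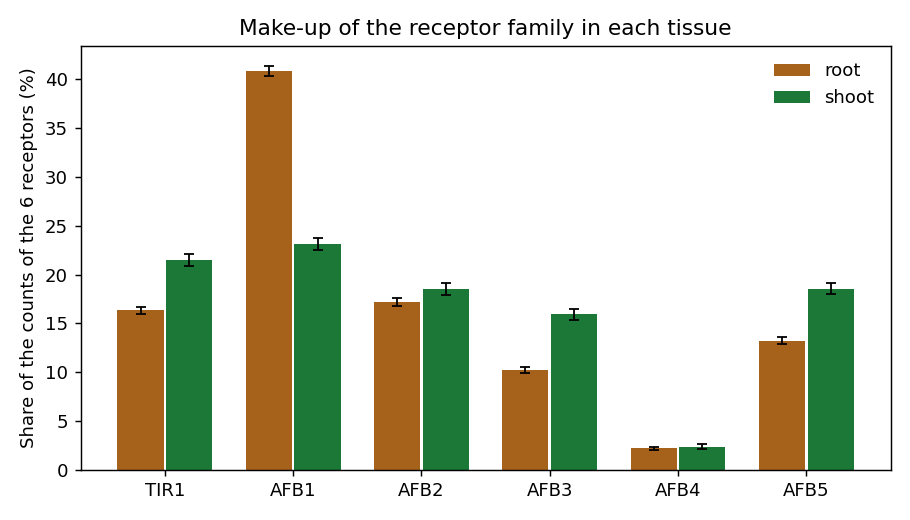
Share of the summed counts of the 6 receptors held by each, in percent, for root (brown) and shoot (green), with exact binomial 95% intervals. AFB1 goes from 40.9% in root to 23.1% in shoot, and AFB4 holds 2.18% and 2.35%.

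F-box proteins work within SCF ligases, for which 15 subunits and regulators were listed, with ASK1 and ASK2 as the adaptors included. All 15 had an ORF in each tissue, as did 80.3% of the genes with an ORF in either tissue. All 15 also had an identical ORF, as 79.3% of coding genes of both tissues did. Their log2 ratios were all below 0, against 63.7% of all genes, with a median of -0.52 against -0.33. Of the 15, 2 were at least 2-fold higher in root and 0 in shoot, against 24.1% and 14.8% of all genes. The lowest were CSN5B, a catalytic subunit of the COP9 signalosome that removes the ubiquitin-like RUB from cullins (-1.58, 1134 root and 320 shoot counts), and RBX1 (-1.01). The highest were ECR1, part of the RUB-activating enzyme (-0.0048, 7834 and 6575 counts), and CSN5A, the close relative of CSN5B (-0.18). ECR1, CSN5A and RUB1 (-0.26, named after its value was seen) lay above the median gene, so relative to it they were not below 0.

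Per codon, the 6 receptors together had 61.6 counts in root and 29.1 in shoot. The cullin CUL1, shared by many other SCF ligases, had 51.9 and 30.5, and RBX1 had 40.0 and 16.8. The adaptor ASK1 had 226 counts per codon in root and 110 in shoot, 3.67 and 3.79 times the receptor sum, and ASK2 had 52.0 and 33.2. The 6 summed receptors thus lay near CUL1 in footprint density in both sets. Without AFB1 the sum was 36.2 in root and 22.3 in shoot, below CUL1 in each. Footprint density is not protein amount, and binding to CUL1 was not tested.

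The 29 Aux/IAA genes form the family that includes the co-receptors and substrates of the TIR1/AFB proteins. Of the 29, 17 had an ORF in each tissue, 3 in root alone, 1 in shoot alone and 8 in neither. Among genes with an ORF in either tissue, 80.3% had one in each, 11.4% in root alone and 8.3% in shoot alone. Over the 17 the median log2 ratio, from identical ORFs, was -0.47, against -0.33 for all genes. Of the 17, 3 were at least 2-fold higher in root and 1 in shoot, against 24.1% and 14.8% of all genes. The ratio was -1.56 for IAA19 and -1.33 for IAA17 (AXR3), which had 30075 counts in root and 10090 in shoot. It was 1.69 for IAA18 and 0.53 for IAA11. IAA10 and IAA28, with 392 and 8738 counts, were listed in root only, and IAA5, with 212, in shoot only. A gene that is not listed was not shown to be untranslated.

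Of 23 ARF genes, 14 had an ORF in each tissue, 1 in shoot alone and 8 in neither. Among genes with an ORF in either tissue, 80.3% had one in each and 8.3% in shoot alone. The median over 9 identical ORFs was -0.02, which becomes 0.31 relative to the median gene and 0.22 over 14 genes per codon. Of the 9, 2 were at least 2-fold higher in root and 2 in shoot, against 24.1% and 14.8% of all genes. ARF16 (-1.65) and ARF19 (-1.54), the latter an activator of lateral root formation, were higher in root. ARF4 (2.07), which acts in leaf polarity, and ARF17 (1.41) were higher in shoot, and ARF18 was listed in shoot only with 694 counts. The 9 ARF ratios thus ranged more widely than those of the receptors, which lay between -1.65 and -0.19. A range grows with the number of genes, and the quartiles over all 11610 genes were -0.97 and 0.35.

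Among 9 genes of the GH3 and LBD families that auxin induces, 6 had an ORF in each tissue. GH3.1 (718 counts) and LBD29 (303) had one in root alone, and 1 gene was in neither set. Across all listed genes, 80.3% were in both sets and 11.4% in root alone. Of the 6, 4 had an identical ORF. Their ratios went from -1.20 for GH3.5, an enzyme that conjugates auxin to amino acids, to -0.39 for GH3.6. The other 2, named after their values were seen, had no identical ORF and lay far apart. GH3.2 had 4143 root and 194 shoot counts, a log2 ratio per codon of -4.09, and GH3.3 had 1360 and 2999, a ratio of 1.36 toward shoot. Per codon, 2 of the 6 were at least 2-fold higher in root and 1 in shoot, against 25.1% and 15.8% of genes. GH3.17 was at -0.76 and LBD16, which acts in lateral root initiation, at -0.66.

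**Figure D5:**
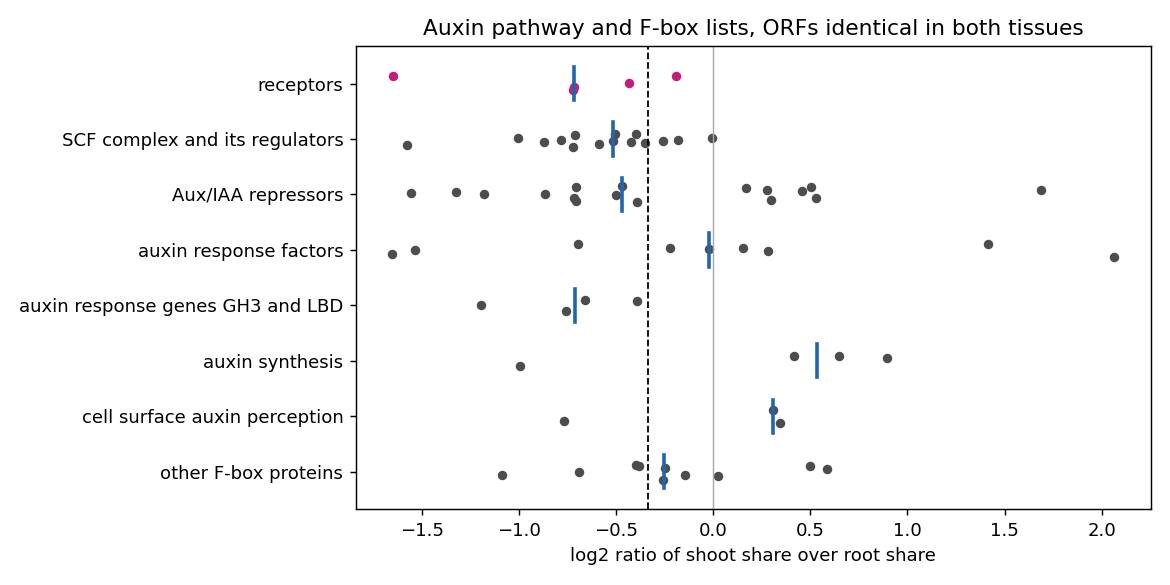
Log2 ratio of shoot share over root share for genes of each list with an ORF identical in both tissues and a count of 100 or more in either, with a bar at each list's median and a dashed line at the median gene (-0.33). All 5 receptors shown and all 15 SCF genes lie below 0, and the ARFs spread from -1.65 to 2.07. Of these receptors and SCF genes, AFB3, ECR1, CSN5A and RUB1 lie above the median gene.

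The receptors were also set beside 15 other F-box proteins of hormone and light signalling. Of these, 10 were listed in both tissues, 2 in root alone, 1 in shoot alone and 2 in neither. Across all listed genes, 80.3% were in both sets, 11.4% in root alone and 8.3% in shoot alone. The 6 receptors and the 10 listed in both made 16 F-box genes. By counts per codon, AFB1 ranked 1 of these 16 in root and 3 in shoot. AFB2 ranked 3 in root and 5 in shoot, TIR1 ranked 4 in both, and AFB4 ranked 15 in root and 16 in shoot. SLY1, the gibberellin signalling F-box protein, had 16.97 counts per codon in root and 11.95 in shoot, the highest of the 10 in each. COI1, the jasmonate receptor and closest relative of the TIR1/AFB family, had 6.94 and 4.48, with a log2 ratio of -0.38. The 10 had a median log2 ratio of -0.25, which becomes 0.081 relative to the median gene. VFB1 (-1.09) was the 1 of 10 that was at least 2-fold higher in root, against 24.1% of all genes. EBF1 of ethylene signalling was at -0.69, and ZTL of the clock and SKP2A were at 0.59 and 0.50. In root only, SNE had 131 counts and SKP2B 1139, and VFB3 had 185 in shoot only.

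The gene nearest to each receptor in root and shoot counts per codon was sought among the 73 other auxin and F-box genes listed in both tissues, by Euclidean distance of log2 values over the 2 tissues. For AFB2 it was AXR1, part of the RUB-activating enzyme, with 10.5 counts per codon in root and 5.35 in shoot, at a distance of 0.065. AXR1 was also nearest to TIR1 (0.23). COI1 was nearest to AFB3 (0.14) and IAA27 to AFB5 (0.17). The distances were longer for AFB1, whose nearest gene was GH3.5 (0.56, with 17.2 and 6.33 counts per codon), and for AFB4, whose nearest was VFB2 (0.55, with 1.08 and 0.927). With 2 points per gene this likeness is a description of levels and no more.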

How the data were processed

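The deposited tables give, for each translated ORF of root and shoot, its exon blocks and a whole-number count, which the authors did not scale by length or depth as far as the values show (minimum 6). The tables have no header, so the unit was read from the values. Per the submitters' processing notes, Bowtie2, STAR 2.5.1b and the build TAIR10 were used, with no role stated. The sources used here give neither the ORF caller nor how a tissue's 3 samples were combined. Rows of the same name were joined into 1 ORF, and its length in codons follows from the positions in that name. Symbols came from a RefSeq table (TAIR10.1, names only), where all 131 entries of 11 lists matched. No sequence was used.

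Ratios used the longest coding ORF identical in both tissues, shares of summed largest counts, a pseudocount of 0.5 and at least 100 counts in the higher tissue. AFB5 has no such ORF and was given per codon. Shares carry exact binomial and counts exact Poisson 95% intervals. Members and lists were chosen with earlier results of these data known. In each list the 2 highest and 2 lowest ratios (fewer in lists under 4) and up to 2 genes of 1 tissue only are named in list order. ASK1, ASK2, CUL1, COI1 and SLY1 and the genes that mark each tissue were named after their values were seen. Alternatives were median and nuclear scaling, a pseudocount of 5, the largest ORF per codon, counts of at least 627 and percentiles among ORFs of at least 100 codons. The ratio step was tested on simulated counts. Scripts ran in Python 3.11.15 (scipy 1.17.1, pandas 2.3.3, numpy 2.4.6), and figures were drawn with matplotlib 3.10.9.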

Additional observations from a re-analysis of the deposited data

How the results depend on the processing

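Scaling on the median ratio in place of the tissue sums changed the log2 ratios of the receptors to -0.10 for TIR1, -1.32 for AFB1, -0.39 for AFB2 and -0.38 for AFB4, and turned AFB3 to 0.14 and AFB5 to 0.0070, since it adds the same amount to each. It also turned the medians of the ARF list to 0.31 and of the other F-box list to 0.081. Sums over nuclear genes only, a pseudocount of 5 and the largest ORF per codon left every receptor ratio within its counting interval, as did leaving AFB5 undivided by codons. AFB1 was the 1 receptor at least 2-fold higher in root under each of these. The largest ORF per codon turned the medians of the ARFs to 0.22, of auxin synthesis to -0.29 and of cell surface perception to -0.21; it brings more genes into each list. With ORF counts of at least 627, AFB4 was no longer listed in shoot. No paired analysis was possible because each tissue has 1 set with no value per replicate, and leaving out replicates was not possible for the same reason. Protein identity and the miR393 match were not run. Counts of 404 or more per receptor leave counting error small, so depth limits AFB4 most.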

Other observations

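Genes that make auxin lay on both sides of equal shares. Of 11 genes of the indole-3-pyruvate route, 7 were listed in both tissues. YUC9 was listed in root only with 390 counts, YUC4 in shoot only with 65, and 2 genes in neither. Over every listed gene, the shares were 80.3% for both, 11.4% for root alone and 8.3% for shoot alone. TAA1, the aminotransferase of the first step, had 2801 root and 4389 shoot counts, a log2 ratio of 0.90. YUC8 and TAR2 were also higher in shoot, at 0.65 and 0.42, and YUC6 was higher in root, at -0.995. The median over these 4 genes, whose ratios came from identical ORFs, was 0.53. YUC3 and YUC2, named after their values were seen, had a ratio only per codon and were higher in root. YUC3 had 875 root and 125 shoot counts, a ratio of -1.99, and YUC2 had 200 and 118, a ratio of -1.05. Over the 6 genes with the largest ORF per codon the median was -0.29. Of these 6, 2 were at least 2-fold higher in root and 0 in shoot, against 25.1% and 15.8% of genes per codon.

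Of 5 genes of proposed auxin perception at the cell surface, 4 were listed in both tissues and 1 in neither. Across all listed genes, 80.3% were in both. The auxin-binding protein ABP1 had 2323 root and 1148 shoot counts, a log2 ratio of -0.77, and the receptor kinase TMK1 had 10032 and 10728, a ratio of 0.34. Per codon, TMK1 was at 10.6 in root and 11.4 in shoot, so its shoot level lay above that of each of the 6 receptors. The same held in shoot for AT2G01820 (13.6) and AT3G23750 (8.29), which were named after their values were seen. ABP1, at 5.80 in shoot, lay below AFB1 and TIR1. In root, TMK1 lay below AFB1 (25.3) and AFB2 (10.8).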
